A study of Homo sapiens with 4 samples.

Results

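The proteasome genes were taken as every protein-coding gene whose symbol starts with PSMA, PSMB, PSMC, PSMD, PSME, PSMF or PSMG followed by a number, which gave 48 of the 58735 genes listed. Of these, 45 averaged 1 FPKM or more across the 4 libraries and entered the test, among 12029 genes in all. FPKM counts fragments relative to gene length and library size. The cells were of the 769-P line, which comes from a human clear cell carcinoma of the kidney and stably carried an inducible short hairpin RNA against the deubiquitinase USP35. The control group is 2 libraries of these cells left untreated, and the doxycycline group is 2 libraries of the same cells given doxycycline at 1 µg/ml for 4 days to switch the hairpin on. Control and doxycycline libraries all carry the construct and were grown with puromycin, and doxycycline without a hairpin was not analysed here. Whether replicates came from separate cultures is not labelled, so p-values measure only how far these libraries differ, possibly for technical reasons.

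The proteasome degrades ubiquitin-tagged proteins inside a barrel, the 20S core, made of outer alpha rings (PSMA genes) and inner beta rings (PSMB genes). Only PSMB5, PSMB6 and PSMB7 encode catalytic subunits in the constitutive particle. Cells exposed to interferon build the immunoproteasome instead, in which PSMB8, PSMB9 and PSMB10 replace PSMB5, PSMB6 and PSMB7 in that order and favour peptides that fit MHC class I. A 19S cap of ATPases (PSMC) and non-ATPase subunits (PSMD) recognises and unfolds substrates, and other caps, among them PA28 (PSME1 and PSME2), can take its place.

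Short promoter stretches are shown first, because the interferon-linked members are known for sites bound by STAT and IRF factors close to their starts. Windows of 250 bases before the start were found for 42 of the 48 genes in RefSeq (GRCh38.p14), and PSMA7, PSMB1, PSMB6, PSMB7, PSMD4 and PSMG3 had none. Both strands were searched for the core of the interferon-stimulated response element (ISRE, which is GAAA, then 2 bases of any kind, then GAAA) and for the gamma-activated site (GAS, TTCNNNGAA). The search also took in the core of the antioxidant response element (ARE, TGACNNNGC), to which NFE2L1, the factor that raises proteasome genes, and NFE2L2 bind. The ISRE core was in 5 of 42 genes (11.9%), against 3.71% of 27305 genes in the table, and its matches are printed in capitals, 5′ to 3′ on the gene's strand.
PSMB10, chr16:67936852-67936881, minus strand: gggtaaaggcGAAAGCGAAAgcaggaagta
PSME2, chr14:24146619-24146648, minus strand: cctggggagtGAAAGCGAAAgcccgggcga
PSMG4, chr6:3258904-3258933, plus strand: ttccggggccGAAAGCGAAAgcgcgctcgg
PSMB4, chr1:151399495-151399524, plus strand: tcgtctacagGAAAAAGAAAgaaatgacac
PSMA4, chr15:78540155-78540184, plus strand: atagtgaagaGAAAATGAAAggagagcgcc

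In PSMB10 the match begins 21 bases before the start and in PSME2 28 bases before it, while in PSMA4 it lies 240 bases before. The matches in PSMB10, PSME2 and PSMG4 lie within annotated exons, and those in PSMB4 and PSMA4 lie outside them. The GAS core was in 7 of 42 genes (16.7%), against 8.09% of all genes in the table. These were PSMA2, PSMA8, PSMB5, PSMB8, PSMC4, PSMD3 and PSME3. PSMB8 held 1 match and PSMB5, the constitutive subunit it replaces, held 2, all upstream of the start nearer the coding sequence. The windows with these matches lie wholly within annotated exons. Only the matches of PSMB8 and PSMB5 are printed, with the GAS core in capitals.
PSMB8, chr6:32844093-32844122, minus strand: aactgtccttTTCTCGGAAaaggcaggggg
PSMB5, chr14:23034901-23034930, minus strand: tatctttgctaggcgTTCTCAGAAttagtt
PSMB5, chr14:23035039-23035068, minus strand: cccgacccccTTCAGTGAAaatggtctttc

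PSMB9 lies next to TAP1, a subunit of the peptide transporter of MHC class I, which runs in the opposite direction from the same control region. Of its window, the 169 bases outside every annotated exon are printed with an ARE core in capitals.
PSMB9, chr6:32853979-32854147, plus strand: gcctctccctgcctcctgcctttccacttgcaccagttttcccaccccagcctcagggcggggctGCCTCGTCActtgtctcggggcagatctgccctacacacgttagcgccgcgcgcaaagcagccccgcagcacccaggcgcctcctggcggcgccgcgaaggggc
Neither the ISRE nor the GAS letters were in the PSMB9 window, which says only that these letters are not in these 250 bases. The ARE core was in 13 of 42 genes (31%), against 13.2% of all genes in the table. The CCAAT box was in 19 of 42 genes (45.2%), against 37% of all genes in the table. A match is a description of letters and not a measured site.

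The immune catalytic subunits differed from the controls in opposite directions in the 2 doxycycline libraries. PSMB9, which replaces PSMB6, stood at 4.66 and 3.81 FPKM in control replicates 1 and 2, against 10.8 in doxycycline replicate 1 and 1.28 in replicate 2. PSMB10, which replaces PSMB7, stood at 5.48 and 4.56 FPKM untreated and at 9.30 and 1.30 FPKM with doxycycline. PSMB8, which replaces PSMB5, was at 21.2 and 15.1 FPKM in the controls and at 31.8 and 14.8 FPKM with doxycycline. For all 3 genes doxycycline replicate 1 lay above both controls and replicate 2 below both, for PSMB8 only just below control replicate 2, so the groups overlapped. This order of the libraries was found for 10 of the 45 proteasome genes tested and for 8.71% of all genes tested. It was thus not particular to the immune subunits: the other 7 were PSMB5, PSMB7, PSMD4, PSMD9, PSME1, PSME2 and PSMF1.

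As ratios of FPKM, doxycycline replicate 1 held 8.47 times as much PSMB9 as replicate 2, 7.17 times as much PSMB10 and 2.14 times as much PSMB8. On log2(FPKM + 1), and counting only genes higher in replicate 1, a difference between those 2 libraries at least as large as that of PSMB9 was seen for 55 of the 12029 genes (0.457%). The corresponding numbers were 66 genes (0.549%) for PSMB10 and 430 genes (3.57%) for PSMB8. The values of PSMB9 rested on 227, 204, 626 and 72 recovered reads in the same order of libraries, and those of PSMB10 on 161, 147, 324 and 44 reads.

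Against the controls, the 2 doxycycline libraries together gave no difference beyond this spread. The log2 difference, doxycycline minus control on log2(FPKM + 1), was 0.27 with a standard error of 0.38 for PSMB8 (limma adjusted p = 0.725). It was -0.0063 with a standard error of 0.71 for PSMB9 (limma adjusted p = 0.997), and -0.30 with a standard error of 0.65 for PSMB10 (limma adjusted p = 0.829). Each doxycycline library on its own gave calls, with the lone library assumed to vary like the controls. Without doxycycline replicate 2 all 3 were higher, by 0.80, 1.18 and 0.78 (limma adjusted p = 0.038, 0.000785 and 0.0109) beside 4.95% of all genes called higher, and 0 members were called lower beside 8.39% of all genes. Without doxycycline replicate 1, PSMB9 and PSMB10 were lower, with -1.19 and -1.39 (limma adjusted p = 0.000765 and 0.000285), beside 19.9% of all genes called lower, and PSMB8 had -0.25 (limma adjusted p = 0.42).

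The 3 constitutive catalytic subunits varied less. PSMB5, the chymotrypsin-like subunit, stood at 52.0 and 43.4 FPKM untreated and at 52.4 and 32.5 FPKM with doxycycline. PSMB6, the caspase-like subunit, was at 84.1 and 63.5 FPKM in the controls and at 65.6 and 49.1 FPKM with doxycycline. PSMB7, the trypsin-like subunit, stood at 109 and 89.1 FPKM untreated and at 112 and 80.8 FPKM with doxycycline. Doxycycline replicate 2 was the lowest library for each of them, and the groups overlapped for all 3. For PSMB5 and PSMB7 doxycycline replicate 1 was also above both controls, though only just, which is the order found for the immune subunits. The log2 differences of -0.20, -0.36 and -0.05 had standard errors of 0.29, 0.26 and 0.27 and did not pass the test (limma adjusted p = 0.738, 0.497 and 0.93). The small negative differences of PSMB5 and PSMB7 became 0.0026 and 0.15 when libraries were scaled to the proteasome genes other than the immune subunits.

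**Figure D1:**
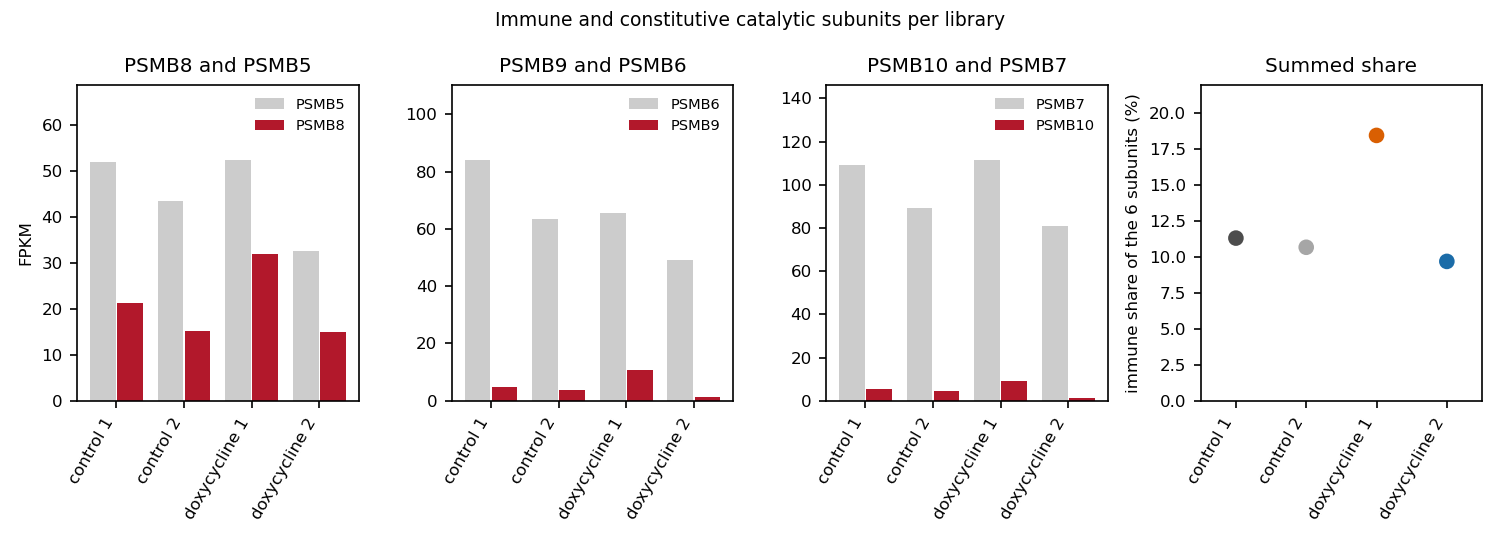
Bars give FPKM of each immune catalytic subunit (red) beside the constitutive subunit it replaces (grey) in the 4 libraries, and the points give the immune share of the summed FPKM of all 6, in percent. Doxycycline replicate 1 has the highest share, 18.5%, and doxycycline replicate 2 the lowest, 9.69%.

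A share within a library does not depend on how libraries are scaled. PSMB8, PSMB9 and PSMB10 made up 11.3% and 10.7% of the summed FPKM of the 6 catalytic subunits in the controls, against 18.5% in doxycycline replicate 1 and 9.69% in replicate 2. The means were 10.99% ± 0.451 (SD, n = 2) and 14.1% ± 6.2 (SD, n = 2), a difference of 3.08 percentage points (exact two-sided permutation p = 1). With 2 against 2 libraries that test cannot go below 0.33. Without doxycycline replicate 1 the difference was -1.3 percentage points, and without replicate 2 it was 7.46. Counted in reads, the share was 17.7% (95% Wilson interval 16.9 to 18.6) and 16.6% (15.7 to 17.5) in the controls. It was 27.4% (26.5 to 28.3) in doxycycline replicate 1 and 15.7% (14.8 to 16.7) in replicate 2, with intervals that cover counting error only.

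The PSMB9 and PSMB10 pairs ordered the libraries alike, and the PSMB8 pair did not. PSMB9 made up 5.25% and 5.66% of PSMB9 plus PSMB6 in the controls, against 14.2% in doxycycline replicate 1 and 2.54% in replicate 2. PSMB10 made up 4.77% and 4.87% of PSMB10 plus PSMB7 in the controls, against 7.70% in doxycycline replicate 1 and 1.58% in replicate 2. PSMB8 made up 28.9% and 25.7% of PSMB8 plus PSMB5 in the controls and 37.8% and 31.3% with doxycycline, so that here both doxycycline libraries lay above both controls (exact permutation p = 0.33, the lowest value possible here). In every library PSMB8 was thus the immune subunit with the largest share of its pair.

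PSMB8 and PSMB9 are neighbours in the MHC region. The file places PSMB8 (ENSG00000204264) at chromosome 6, 32840717 to 32844703 on the minus strand and PSMB9 (ENSG00000240065) at 32844136 to 32859585 on the plus strand, coordinates identical to GENCODE release 29 on GRCh38. PSMB10 (ENSG00000205220) lies at chromosome 16, 67934502 to 67937087, minus strand. The gene models share exon bases with other genes over 20.6% of the length of PSMB8, 5.66% of PSMB9 and 34.8% of PSMB10. Strandedness is not given in the sources used here, so reads there cannot be assigned with certainty. PSMB8-AS1, which overlaps both PSMB8 and PSMB9, was at 0.711 and 0.589 FPKM in the controls and at 2.21 and 0.588 FPKM with doxycycline.

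Levels of subunits that occur in equal numbers in the particle spanned a wide range of FPKM. Among the 13 constitutive 20S subunits tested, control replicate 1 ranged from 1.39 FPKM (PSMA2) to 182 FPKM (PSMA7), with a median of 68.1. In doxycycline replicate 2 the range was 1.52 FPKM (PSMA2) to 98.8 FPKM (PSMB3), with a median of 48.9. Both PSMA2 and PSMA6 encode alpha subunits of every core particle. PSMA6 was below the filter, at 0.252 and 0.212 FPKM in the controls and at 0.45 and 0.26 FPKM with doxycycline, on 24 to 55 reads. Its gene model shares 14.1% of its exon bases with another gene and 4 pseudogenes carry its name, and PSMA2 shares 34.6% and has 3. The highest level of a named pseudogene in any library was 1.84 FPKM for PSMA6, above the gene itself, and 0.0845 FPKM for PSMA2. PSMC1, with 13 named pseudogenes at up to 2.58 FPKM, shares 75.8% of its exon bases. The part of these overlaps and pseudogenes in the low values was not tested. PSMA8, the alpha subunit of germ cells, and PSMB11, the catalytic subunit of the thymus, had 0 reads in all 4 libraries, which allows up to 0.0998 and 0.0896 FPKM.

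**Figure D2:**
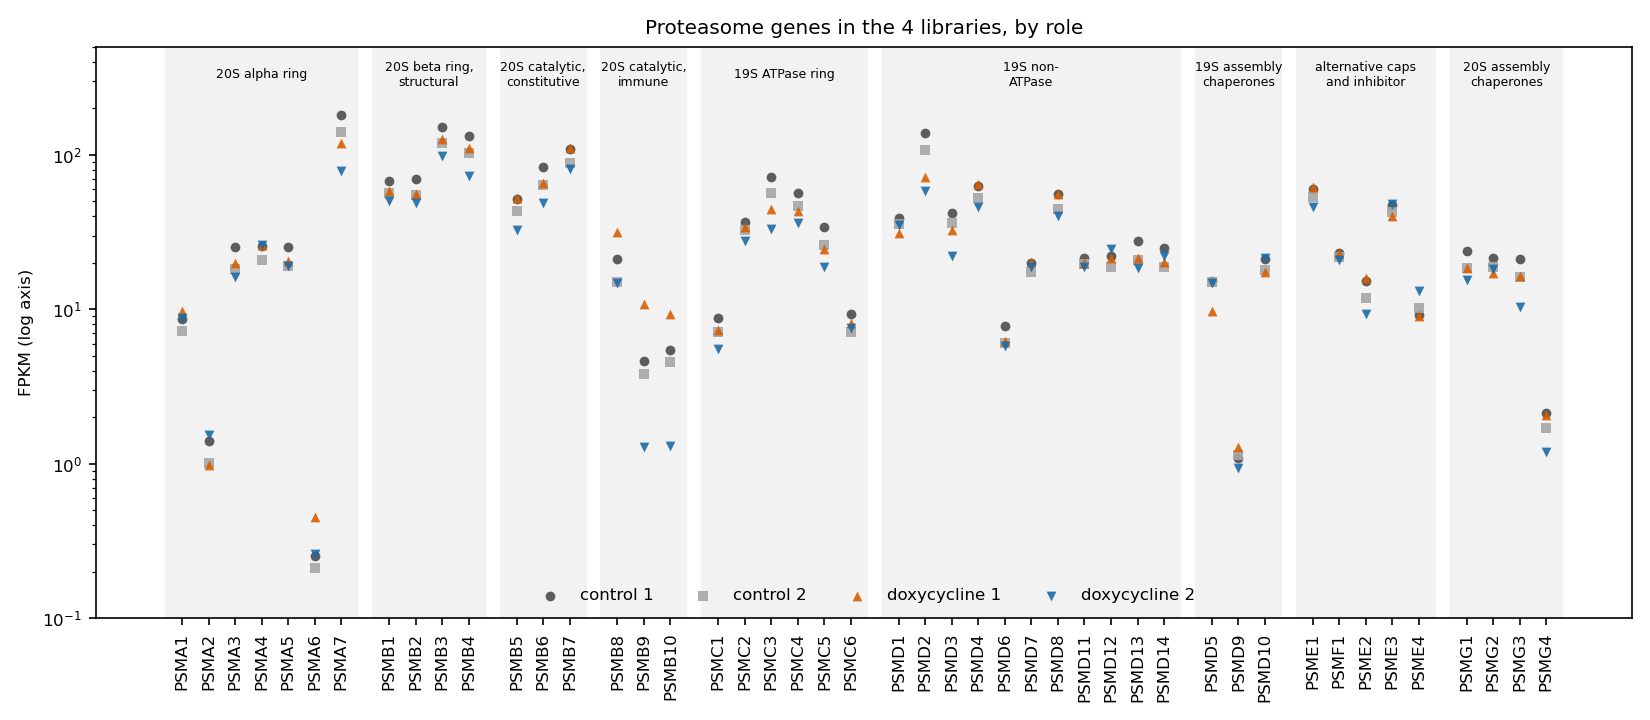
Points give FPKM on a log axis for each of the 46 proteasome genes with reads, grouped by role, with 1 marker per library. The libraries lie close together for most subunits and spread widely for PSMB9 and PSMB10, from 1.28 to 10.8 and from 1.30 to 9.30 FPKM.

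Among the other core subunits, PSMA7, an alpha subunit, was the one with the largest difference. It stood at 182 and 140 FPKM untreated and at 119 and 79.2 FPKM with doxycycline. Both doxycycline libraries were below both controls, and the log2 difference of -0.71 with a standard error of 0.30 did not pass (limma adjusted p = 0.279). PSMA1 and PSMA4, also alpha subunits, went the other way. PSMA1 was at 8.71 and 7.18 FPKM in the controls and at 9.77 and 8.83 FPKM with doxycycline, a log2 difference of 0.21 ± 0.19 (SE, limma adjusted p = 0.58). PSMA4 stood at 25.7 and 20.8 FPKM untreated and at 26.0 FPKM in each doxycycline library, a log2 difference of 0.16 ± 0.21 (SE, limma adjusted p = 0.698). All 4 structural beta subunits, PSMB1 to PSMB4, overlapped between the groups, with doxycycline replicate 2 the lowest library for each.

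The 19S cap held the members with the lowest p-values. PSMD2, the large scaffold of the cap's base, was at 139 and 108 FPKM in the controls and at 71.7 and 58.2 FPKM with doxycycline. The means of 123 ± 21.7 and 64.9 ± 9.6 FPKM (SD, n = 2 each) gave a ratio of 0.526. PSMC3, an ATPase of the base, stood at 72.4 and 56.7 FPKM untreated and at 44.7 and 32.9 FPKM with doxycycline, a ratio of 0.601. For PSMD2 and PSMC3 both doxycycline libraries lay below both controls. The log2 differences were -0.91 with a standard error of 0.25 for PSMD2 (limma adjusted p = 0.158) and -0.73 with a standard error of 0.26 for PSMC3 (limma adjusted p = 0.228), and neither passed. At an unadjusted p under 0.05 they were the only 2 of 45 members, beside 11.9% of all genes lower and 6.47% higher.

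Relative to the other proteasome genes, each doxycycline library also held less PSMD2 than either control. Its log2 FPKM exceeded the median of the proteasome genes other than the immune subunits by 2.44 and 2.37 in the controls, and by 1.68 and 1.42 with doxycycline. For PSMC3 the excess was 1.5 and 1.44 in the controls and 1.00 and 0.60 with doxycycline, and for PSMA7 it was 2.83 and 2.74 against 2.41 and 1.87. These values do not depend on library scaling. With libraries scaled to those genes, the log2 difference of PSMD2 was -0.71 (limma adjusted p = 0.205). Without doxycycline replicate 1, PSMD2, PSMC3, PSMA7 and PSMD3, another scaffold subunit, were called lower (limma adjusted p = 0.00729, 0.0105, 0.011 and 0.0153), together with PSMC5, PSMG3, PSMB9 and PSMB10, which makes 8 of 45 members beside 19.9% of all genes. Without doxycycline replicate 2, PSMD2, PSMC3, PSMA7 and PSMD3 did not pass (limma adjusted p = 0.0698, 0.201, 0.355 and 0.537). PSMD3 was at 41.8 and 36.2 FPKM in the controls and at 32.7 and 22.04 FPKM with doxycycline, a log2 difference of -0.52 ± 0.26 (SE, limma adjusted p = 0.339 over all 4 libraries).

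The remaining cap subunits differed less, with levels of 5.56 to 64.4 FPKM in all libraries. All 6 ATPase genes had a negative log2 difference, with a median of -0.31, beside 52.4% of all genes and a median of -0.03. The ATPase median was -0.18 without control replicate 1 and -0.12 with libraries scaled to the proteasome genes other than the immune subunits. For 3 of the 6 (PSMC3, PSMC4 and PSMC5) both doxycycline libraries were below both controls, beside 28.9% of all genes. Of the 11 non-ATPase genes, 3 were below both controls in this way (PSMD1, PSMD2 and PSMD3), 8 overlapped, and the median was -0.08. The summed FPKM of the 17 cap subunits was 681 and 555 in the controls and 529 and 439 with doxycycline, against 936 and 736 and 779 and 585 for the constitutive 20S subunits. The ratio of cap to core stayed between 0.679 and 0.755 in the 4 libraries, lowest in doxycycline replicate 1 (exact permutation p = 0.667).

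PA28, the interferon-inducible cap, overlapped between the groups. PSME1 stood at 60.5 and 53.6 FPKM untreated and at 62.1 and 46.1 FPKM with doxycycline (log2 difference -0.09 ± 0.24, SE, limma adjusted p = 0.87). PSME2 was at 15.2 and 11.8 FPKM in the controls and at 16.0 and 9.34 FPKM with doxycycline (log2 difference -0.12 ± 0.29, SE, limma adjusted p = 0.855). Like the immune subunits they were highest in doxycycline replicate 1 and lowest in replicate 2, over a narrower range. Relative to the summed ATPase genes of the competing cap, PSME1 plus PSME2 amounted to 0.346 and 0.371 in the controls and 0.48 and 0.429 with doxycycline, higher in both (exact permutation p = 0.33, the lowest value possible here). PSME3, the nuclear PA28 gamma cap, stood at 47.3 and 42.8 FPKM untreated and at 40.0 and 47.97 FPKM with doxycycline, with replicate 2 above both controls and replicate 1 below both. PSME4, the PA200 cap, ran the opposite way to PA28, with 9.18 and 10.1 FPKM in the controls, against 9.04 in doxycycline replicate 1 and 13.2 in replicate 2.

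Assembly factors gave no call. Of the 4 chaperones of the core (PSMG1 to PSMG4), PSMG2 had both doxycycline libraries below both controls, at 21.6 and 18.8 against 17.2 and 18.1 FPKM. PSMG3 was at 21.1 and 16.2 FPKM in the controls and at 16.5 and 10.3 FPKM with doxycycline. Of the chaperones of the cap's base (PSMD5, PSMD9 and PSMD10), PSMD5 was lowest in doxycycline replicate 1, at 9.81 FPKM, against 14.7 FPKM in replicate 2 and 15.3 and 15.0 FPKM in the controls. PSMF1, the PI31 regulator of the core, stayed between 20.7 and 23.3 FPKM.

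Over the whole family 0 of 45 members passed, and 0 of 12029 genes did (0% of genes called, limma adjusted p threshold 0.05). At an unadjusted p under 0.05 limma-trend gave 2 members and limma-voom on recovered reads also gave 2, with 0 passing after adjustment. Both doxycycline libraries lay below both controls for 9 members (28.9% of all genes), above both for 2 (24.3%), and overlapped for 34 (5625 of the 12029 genes). Doxycycline replicate 1 above both controls and replicate 2 below both was found for 10 members (8.71% of all genes). The reverse order, replicate 2 above both controls and replicate 1 below both, was found for 4 members (PSMA2, PSMD10, PSME3 and PSME4, beside 9.22% of all genes). The median log2 difference of the members was -0.16, against -0.03 over all genes, with -0.08 in doxycycline replicate 1 and -0.30 in replicate 2. It stayed between -0.20 and -0.12 under scaling to TPM, by median of ratios or without mitochondrially encoded genes, and was 0.04 when libraries were scaled to the proteasome genes themselves, which shifts the median of all genes to 0.14.

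The controls differed from each other by as much. Control replicate 2 lay below control replicate 1 for 43 of 45 members, against 58.5% of all genes, with a median log2 difference of -0.27 for the members and -0.05 for all genes. Control replicate 1 was the highest library for 27 of 45 members, against 30.6% of all genes. Without it the family median was -0.02, and without control replicate 2 it was -0.28. Doxycycline replicate 2 was the lowest library for 32 of 45 members, against 35.8% of all genes. Across the 42 members other than the immune subunits, the difference in doxycycline replicate 2 had a Spearman correlation with gene length of 0.46, that in doxycycline replicate 1 had 0.04, and that between control replicates 2 and 1 had 0.27. These genes share their libraries and are not independent, and across all genes the values were 0.14, -0.05 and 0.32.

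**Figure D3:**
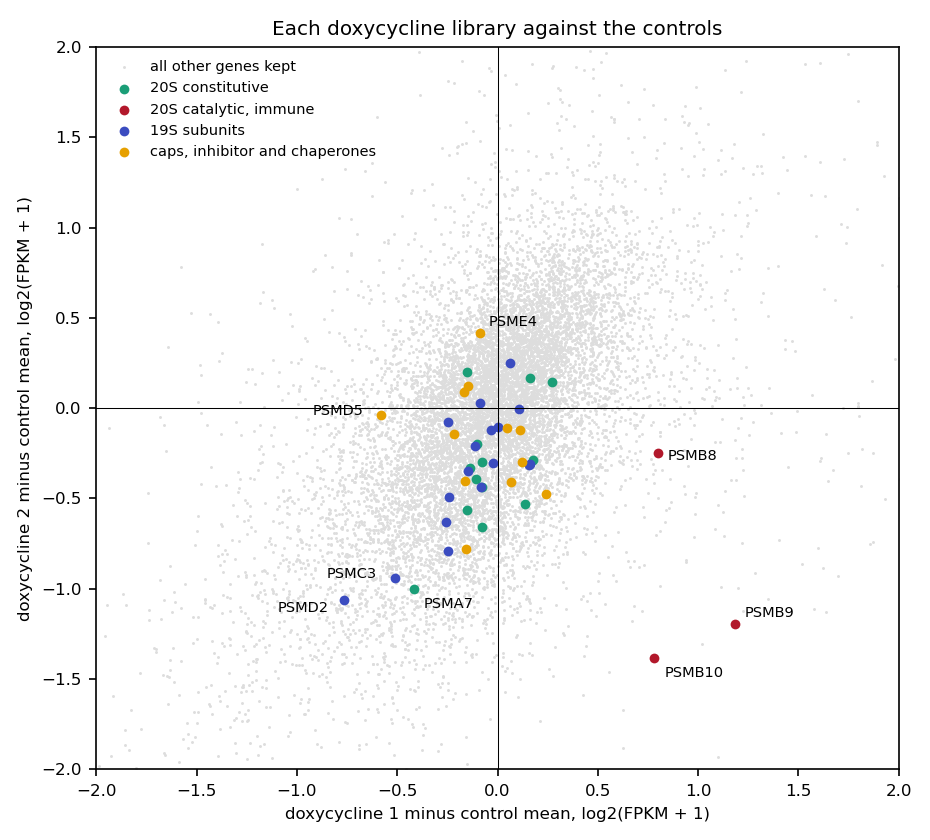
Each point is a gene, with its log2(FPKM + 1) difference from the control mean in doxycycline replicate 1 on the x axis and in replicate 2 on the y axis. Proteasome genes are coloured by role over all other genes tested (grey, 159 genes outside the axes), and PSMB8, PSMB9 and PSMB10 lie at the lower right, above the controls in replicate 1 and below them in replicate 2.

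Genes of the pathway around the proteasome were taken from 5 lists with 61 genes, of which 58 were tested and 0 passed (0% of all genes called). Of 13 subunits and partners with other names, 6 were above both controls in both doxycycline libraries (24.3% of all genes) and 2 below (28.9%), with a median log2 difference of 0.14 against -0.03 over all genes. AKIRIN2, which carries proteasomes into the nucleus, stood at 21.1 and 20.9 FPKM untreated and at 29.5 and 41.8 FPKM with doxycycline (log2 difference 0.72 ± 0.24, SE, limma adjusted p = 0.209). ADRM1, the ubiquitin receptor that sits on PSMD2, was at 50.2 and 40.2 FPKM in the controls and at 39.2 and 19.5 FPKM with doxycycline (-0.68 ± 0.35, SE, limma adjusted p = 0.359). ZFAND2A, an arsenite-inducible proteasome partner, stood at 7.88 and 6.12 FPKM untreated and at 5.57 and 3.40 FPKM with doxycycline. POMP, the maturation factor of the core, and SEM1, a small cap subunit, had log2 differences of -0.14 and -0.32.

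Of 9 regulators of proteasome transcription, 3 were above both controls (24.3% of all genes) and 2 below (28.9%). NFE2L1 stood at 30.3 and 33.8 FPKM in the controls, against 56.5 in doxycycline replicate 1 and 34.0 in replicate 2 (log2 difference 0.44 ± 0.29, SE, limma adjusted p = 0.445). NFE2L2, which encodes NRF2, was instead higher in doxycycline replicate 2, at 35.9 FPKM, than in replicate 1, at 22.01 FPKM, against 18.3 and 16.7 FPKM in the controls (0.66 ± 0.27, SE, limma adjusted p = 0.279). MAFF, a small MAF protein that pairs with these factors, was at 2.245 and 1.99 FPKM in the controls and at 1.77 and 0.768 FPKM with doxycycline. Of 11 ubiquitin genes, E1 enzymes and shuttle factors, 2 were above both controls (24.3% of all genes) and 4 below (28.9%). UBB, a polyubiquitin gene, and UBA6, an E1 enzyme, had log2 differences of -0.33 and -0.42 (limma adjusted p = 0.495 and 0.315). UBQLN2, a shuttle factor, stood at 16.5 and 17.1 FPKM untreated and at 13.4 and 14.4 FPKM with doxycycline.

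Of 13 interferon signalling genes 10 entered the test. Of these, 6 were above both controls in both doxycycline libraries (24.3% of all genes) and 1 was below both (28.9%). The median log2 difference of the list was 0.44 against -0.03 over all genes, with 0.52 in doxycycline replicate 1 and 0.12 in replicate 2. IRF1, a direct activator of the immune subunit genes, stood at 2.59 and 2.40 FPKM in the controls, against 8.23 in doxycycline replicate 1 and 1.11 in replicate 2. Among the 10 tested genes of this list, IRF1 alone lay above both controls in replicate 1 and below both in replicate 2 (8.71% of all genes). NLRC5, the activator of MHC class I genes, stood at 0.728 and 0.751 FPKM in the controls, against 5.05 in replicate 1 and 0.754 in replicate 2. NLRC5 passed the filter on the mean only through replicate 1. It still counts in the medians and among the 6 genes above both controls, in replicate 2 only just. IFNGR1, a subunit of the interferon gamma receptor, was at 5.54 and 5.71 FPKM in the controls and at 8.78 and 9.63 FPKM with doxycycline (0.62 ± 0.17, SE, limma adjusted p = 0.161). SOCS1, a feedback inhibitor, was under the filter, with 0 and 1 reads in the controls, against 72 in doxycycline replicate 1 and 2 in replicate 2.

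MHC class I genes, whose products take up the peptides that the immunoproteasome makes, had a median log2 difference from the controls of 0.51 in doxycycline replicate 1 and -0.11 in replicate 2. These medians include HLA-F, which passed the filter on the mean only through replicate 1. HLA-F was at 0.624 and 0.542 FPKM in the controls and at 2.94 and 0.604 FPKM with doxycycline. Its log2 differences were 1.32 in replicate 1 and 0.019 in replicate 2, and medians without it were not computed. TAP1 stood at 8.87 and 8.57 FPKM in the controls, against 29.5 in doxycycline replicate 1 and 6.34 in replicate 2. TAP2, its partner, stood at 3.16 and 2.5 FPKM in the controls, against 8.82 in replicate 1 and 2.74 in replicate 2. Of the 15 genes in this list, 2 were above both controls in both doxycycline libraries (24.3% of all genes), 1 was below both (28.9%) and 12 overlapped. Among those that overlapped, 5 lay above both controls in replicate 1 and below both in replicate 2 (8.71% of all genes). HLA-E, a non-classical class I gene, was above both controls in both libraries, at 24.3 and 23.3 against 56.2 and 41.3 FPKM (0.99 ± 0.23, SE, limma adjusted p = 0.12). CALR, the calreticulin chaperone, was below both, at 266 and 234 against 167 and 117 FPKM (-0.83 ± 0.27, SE, limma adjusted p = 0.207).

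**Figure D4:**
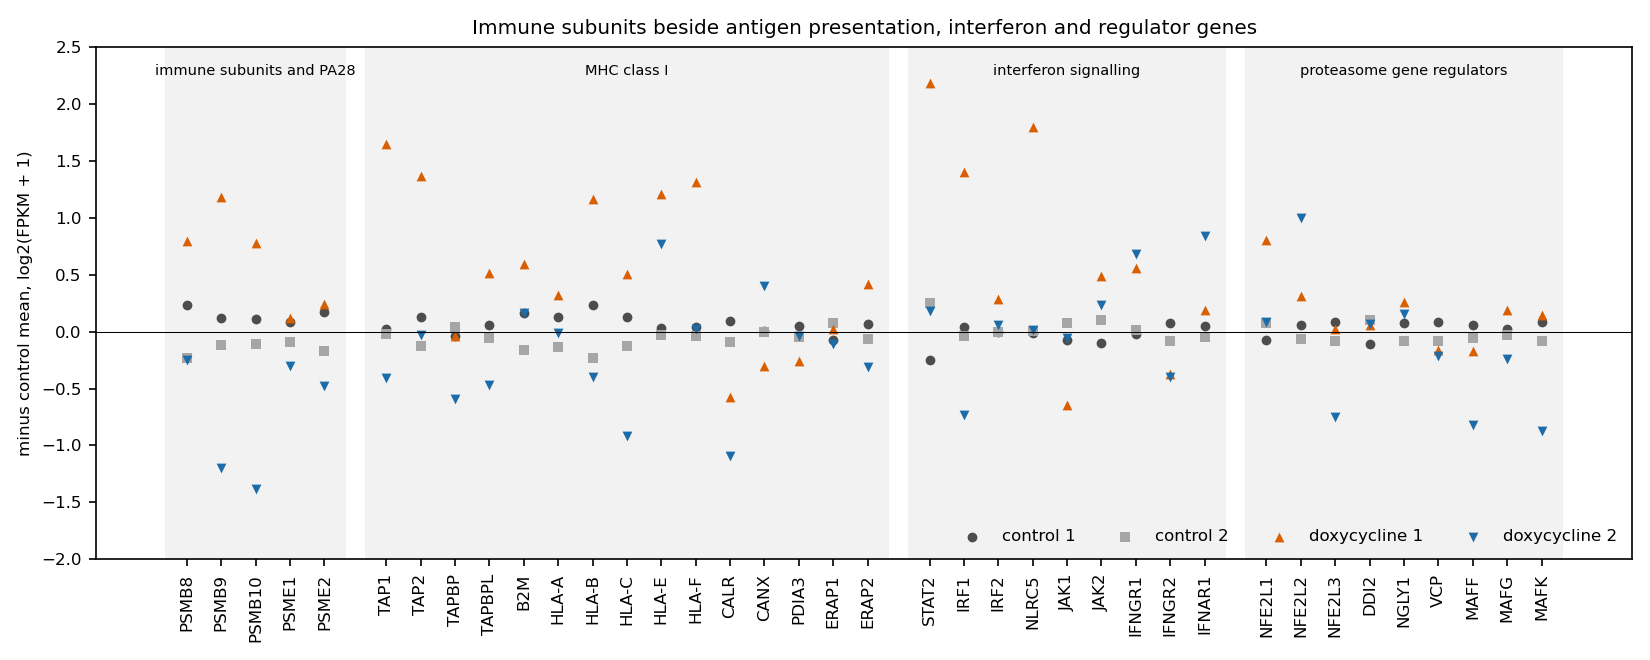
Points give log2(FPKM + 1) minus the control mean in each library, with the immune subunits and PA28 beside genes of the MHC class I, interferon signalling and regulator lists. PSMB9, IRF1 and TAP1 are above the controls in doxycycline replicate 1 and below them in replicate 2, while HLA-E is above them in both.

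Depth was 16319640 to 18764546 recovered reads per library. USP35 had both doxycycline libraries below both controls, at 3.31 and 4.19 FPKM in the controls and at 2.11 and 2.54 FPKM with doxycycline (log2 difference -0.51 ± 0.20, SE, limma adjusted p = 0.256). Mitochondrially encoded genes took 14.6% of reads in doxycycline replicate 2 and 7.44% to 8.50% in the other libraries. Of 9 markers of the renal carcinoma line, 8 had a mean of at least 1 FPKM, PAX8 among them, and CA9 was near 0. Leukocytes carry the immunoproteasome without interferon, and of 12 leukocyte markers 0 reached a mean of 1 FPKM, 4 were at 0 in every library, and their summed level was 0.595 and 0.975 FPKM in the controls and at 0.393 and 0.672 FPKM with doxycycline. The 6 endothelial and 6 fibroblast markers also stayed under a mean of 1 FPKM. In bulk RNA, fewer cells carrying a transcript and less of it per cell cannot be told apart.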

How the data were processed

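RNA sequencing of 2 control and 2 doxycycline libraries was analysed from 1 table per library, in which values are FPKM as deposited by the authors, per the file headers. The submitters' processing notes name HISAT2 2.0.5, featureCounts 1.5.0-p3 and limma without roles; genome build and strandedness are not given in the sources used here. Gene coordinates equalled GENCODE release 29 for all 58735 genes. Multiplying FPKM by gene length and dividing by what 1 read is worth gave whole numbers for 100% of values (tolerance 0.02 reads), taken as reads. A count of 0 was taken to allow 3 reads. The 12029 genes averaging 1 FPKM or more were tested with limma-trend (limma 3.58.1, R 4.3.3) on log2(FPKM + 1), two-sided, without covariates, with Benjamini-Hochberg adjustment and a threshold of 0.05. This scale understates changes of low genes. Steps were tested on simulated data, where false calls exceeded the nominal rate when the data were counts. Members, lists and motifs were chosen with earlier results of these data known. Genes named are all members by role, genes of 5 pathway lists chosen by name, the 2 of lowest p in a list and USP35, while other genes named, among them PSMB8-AS1, SOCS1 and CA9, were chosen after their values were seen. Alternatives changed the pseudocount, filter, scaling, test, block and libraries. Values of some list genes are not reported here.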

Additional observations from a re-analysis of the deposited data

How the results depend on the processing

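The number of proteasome genes called was 0 in all fits over 4 libraries, and 0 to 8 when each library was left out in turn (8 lower without doxycycline replicate 1, beside 19.9% of all genes, and 3 higher without replicate 2, beside 4.95%). The count over all genes moved from 0 to 261 for genes averaging 5 FPKM or more, 242 over protein-coding genes alone and 2 with libraries scaled to the proteasome genes other than the immune subunits, which was chosen after seeing the data. Leaving out 1 library gave 0 to 3942. With the replicate number as a block 784 genes were called, 0 proteasome genes and 2 of the pathway lists, HLA-E among them. The difference in the immune share, 3.08 points, cannot change with this block, because each group holds 1 library of each number. The replicate numbers come from sample names alone, and deviations of same-numbered libraries had a correlation of 0.21 across genes. Pathway genes called ranged from 0 to 17 of the 58 tested without 1 library. The 17 came from the fit without doxycycline replicate 1, which called 3942 of all 12029 genes. The immune share ranged from -1.3 to 7.46 percentage points without 1 library. Some signs turned with the scaling: PSMB9 became 0.0229 by median of ratios, 0.00869 without mitochondrially encoded genes and 0.13 under the proteasome scaling, where PSMB5 became 0.0026, PSMB7 0.15, PSME1 0.11, PSME2 0.0719 and POMP 0.0629. Signs also turned without 1 library, where the log2 differences ranged from -0.73 to 1.40 for IRF1, -0.33 to 0.054 for POMP, -1.39 to 0.78 for PSMB10, -0.53 to 0.14 for PSMB5, -0.29 to 0.18 for PSMB7, -0.25 to 0.80 for PSMB8, -1.19 to 1.18 for PSMB9, -0.30 to 0.12 for PSME1, -0.47 to 0.24 for PSME2, -0.40 to 1.65 for TAP1 and -0.027 to 1.37 for TAP2. The cause was not tested. Depth limits PSMB9 and PSMB10, at 72 and 44 reads in doxycycline replicate 2.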
